A study of Mus musculus with 16 samples.

Results

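Of the 8 dentate gyrus libraries from sedentary mice, 3 were low in Malat1, and these 3 are described here against the 5 other sedentary libraries. The dentate gyrus is the part of the hippocampus that keeps making neurons in adult life. The libraries were chosen by a measured value, a Malat1 level under 250 TPM (a share of all transcripts in a library, corrected for transcript length), so every difference between the 3 and the 5 is a description and carries no p-value. Replicate 2, with 202 TPM, was the member nearest to the threshold, and replicate 8, with 359 TPM, was the nearest library outside it. The low-Malat1 libraries were replicate 2 of p16 WT CTL and replicates 6 and 7 of p16 KO CTL, so the split cuts across genotype. The other sedentary libraries were replicates 1, 3 and 4 of p16 WT CTL and replicates 5 and 8 of p16 KO CTL.

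The whole series has 16 libraries in 4 groups of 4, made from male C57BL/6 mice aged 1 year. Sedentary mice (CTL) of p16 WT and p16 KO genotype were kept in standard cages, and running mice (RUN) of both genotypes had a wheel for 12 days. The p16 KO is a constitutive, homozygous null of the cell cycle inhibitor p16Ink4a, first made in FVB mice, and it leaves p19Arf functional. Each library pooled the dentate gyri of 2 mice, so the p-values given for the running and genotype comparisons measure the spread between pools and not between single animals.

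Malat1, Meg3 and Snhg11 are long noncoding RNAs that are abundant in neurons and largely kept in the nucleus. Malat1 gathers at nuclear speckles, where splicing factors are stored. Meg3 is transcribed from the maternal copy of the imprinted Dlk1-Dio3 locus, which also holds Rian, Mirg and many microRNA genes, and Snhg11 hosts small nucleolar RNAs in its introns. Introns are transcribed with the rest of a gene and are removed and degraded in the nucleus, whereas ribosomal protein mRNAs and most other spliced messages are exported to the cytoplasm.

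Named reductions were the largest among genes with a mean of 5 TPM or more where the low-Malat1 and other sedentary libraries did not overlap. Among the 15 so named were microRNA entries that lie within introns of host genes that can be compared with them. Not all of these are shown, and Mir6953 had no hairpin in the RefSeq microRNA set used. The 4 microRNA hairpins below are examples. They were taken from RefSeq (GRCm38.p6, the same sequence as the mm10 build of the files), are written 5′ to 3′ as RNA, and carry in capitals the seed, bases 2 to 8, of each annotated mature arm. Mir421 and Mir374b lie side by side in the X-linked noncoding gene Ftx, at chrX:103572921-103572996 and chrX:103573060-103573154 on the minus strand. Mir7115 lies in Arrb2, at chr11:70438255-70438318 on the plus strand, and Mir7036 in Srrt, at chr5:137296624-137296688 on the minus strand. The 7 annotated arms have 7 distinct seeds.
Mir421: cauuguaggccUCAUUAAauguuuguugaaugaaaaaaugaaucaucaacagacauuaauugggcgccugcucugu
Mir374b: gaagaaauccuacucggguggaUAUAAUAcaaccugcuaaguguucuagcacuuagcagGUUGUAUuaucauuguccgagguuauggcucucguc
Mir7115: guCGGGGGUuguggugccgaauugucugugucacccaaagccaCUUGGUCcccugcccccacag
Mir7036: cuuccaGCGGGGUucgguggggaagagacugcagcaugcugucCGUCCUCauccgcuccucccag

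The 3 nuclear RNAs were lower together, each by about the same amount. Below, TPM values are listed for replicates 2, 6 and 7 and then for replicates 1, 3, 4, 5 and 8, and log2 differences are low-Malat1 minus other sedentary libraries on log2(scaled TPM + 0.1). Malat1 (chr19:5795690-5802671) was at 202, 123 and 67.1 TPM against 439, 701, 640, 457 and 359 TPM, or 131 ± 67.9 (SD, n = 3) against 519 ± 144 TPM (SD, n = 5), a log2 difference of -1.98. Meg3 (chr12:109540996-109571729) was at 258, 107 and 91.3 TPM against 511, 556, 695, 550 and 648 TPM, a log2 difference of -2.01. Snhg11 (chr2:158375638-158386145) was at 198, 76.8 and 76.3 TPM against 392, 424, 495, 409 and 513 TPM, a log2 difference of -1.97. Replicates 6 and 7 lay below replicate 2 for all 3 genes, and the groups did not overlap. Within p16 WT CTL the log2 differences were -1.43 for Malat1, -1.08 for Meg3 and -1.04 for Snhg11, and within p16 KO CTL they were -2.06, -2.50 and -2.49.

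The 8 running libraries, of which none entered the split, held 436 to 856 TPM of Malat1 (median 608 TPM), 473 to 737 TPM of Meg3 and 323 to 442 TPM of Snhg11. Low levels of these RNAs were therefore found in sedentary libraries of both genotypes and in no running library.

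**Figure D1:**
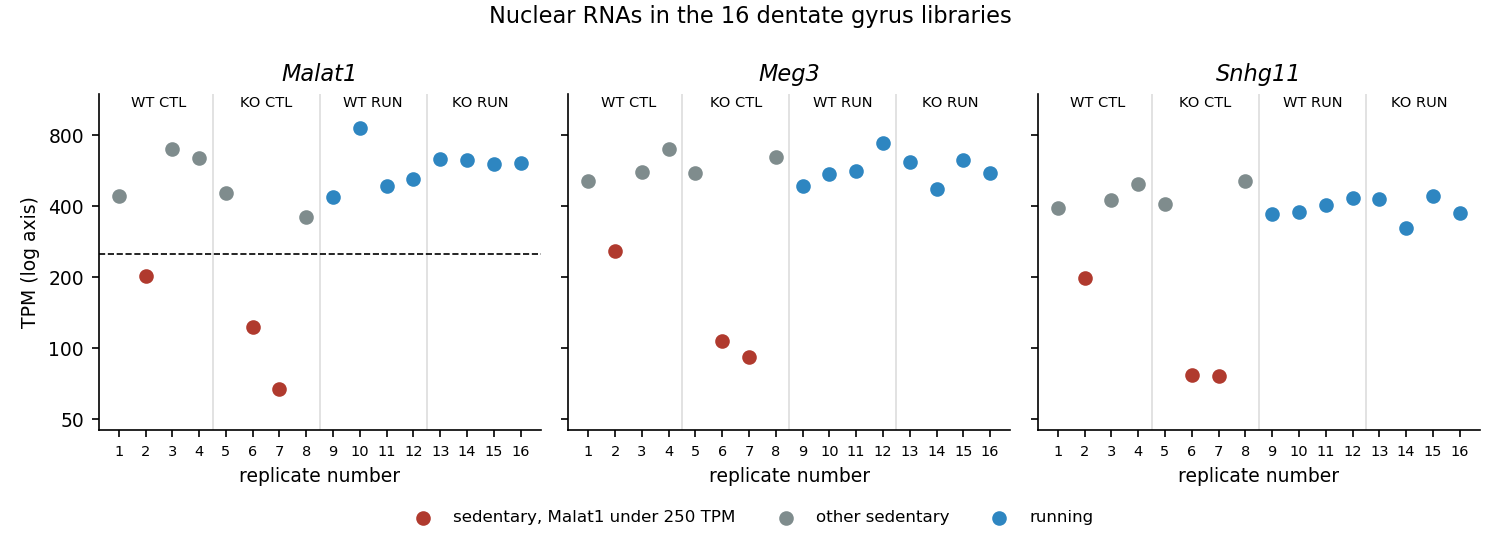
TPM (log axis) of Malat1, Meg3 and Snhg11 in each of the 16 libraries, with a dashed line at 250 TPM of Malat1 and with the low-Malat1, other sedentary and running libraries marked apart. The low-Malat1 libraries lie at or below 258 TPM for every gene shown, and all other libraries lie at or above 323 TPM.

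The library measures that can be had from the tables differed in part along the same line. Coverage relative to the other libraries was 1.95 in replicate 2 and 1.68 in replicate 7, but 1.02 in replicate 6, against 0.900 to 1.07 in the other sedentary libraries and 0.621 to 0.893 in the running libraries. Replicate 6 thus had a Malat1 level of 123 TPM at a coverage within the range of the other sedentary libraries. The low-Malat1 libraries had 13829 to 14143 genes at 1 TPM or more, and the other sedentary libraries 14396 to 14535. The part of coverage in the differences was not tested, and the labels name no batch. Cdkn2a, the locus of p16, was at 0 to 0.586 TPM in all 16 libraries and so gives no check of the genotype labels. The marker genes of dentate granule neurons were present in every library, with summed levels of 785 to 2166 TPM.

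In all, 2417 of 17317 genes (14.0%) were lower in each of the 3 low-Malat1 libraries than in each of the 5 others, and 1698 genes (9.81%) were higher in each. These percentages are the background for the counts of gene groups below. Reductions were larger than increases: 572 genes were lower and 27 higher by at least 1 log2 unit, and the median sizes were -0.53 and 0.27. Of the lower genes 67.3% lay below all 13 other libraries, running ones included, as did 65.9% of the higher genes above them. The split between lower and higher genes depended on the scaling, since 3452 genes were lower and 832 higher with TPM as deposited, and 1795 and 2020 after quantile normalization. Across all genes the difference within p16 WT CTL and the one within p16 KO CTL, which share no library, had a Pearson r of 0.31 and the same sign in 64.6% of genes, which are not independent of each other.

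The medians of the noncoding transcript classes were below 0, while that of protein-coding genes was close to 0. The median log2 difference was -0.31 over 988 lncRNAs, of which 208 (21.1%) were lower and 22 higher. It was -0.78 over 575 microRNA entries, with 108 (18.8%) lower and 3 higher, and -1.16 over 108 small nucleolar RNA (snoRNA) entries, with 34 (31.5%) lower and 3 higher. Over 15408 protein-coding genes the median was -0.00, and 2028 were lower and 1662 higher. Where the mean reached 5 TPM the noncoding classes also lay below protein-coding genes, and the medians were -0.16 for 221 lncRNAs, -1.23 for 68 microRNA entries, -1.04 for 30 snoRNA entries and 0.02 for 11302 protein-coding genes. After quantile normalization the lncRNA median was -0.06, beside a median of 0.04 over all genes. The summed level of lncRNAs was 5356 to 6208 TPM in the low-Malat1 libraries, 7758 to 8866 TPM in the other sedentary libraries and 7669 to 8448 TPM in the running libraries, with Malat1, Meg3 and Snhg11 included in each sum. The sums of snoRNA entries were also apart, at 542 to 585 TPM against 786 to 974 TPM, whereas those of microRNA entries overlapped, at 2264 to 3069 TPM against 2900 to 5590 TPM.

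**Figure D2:**
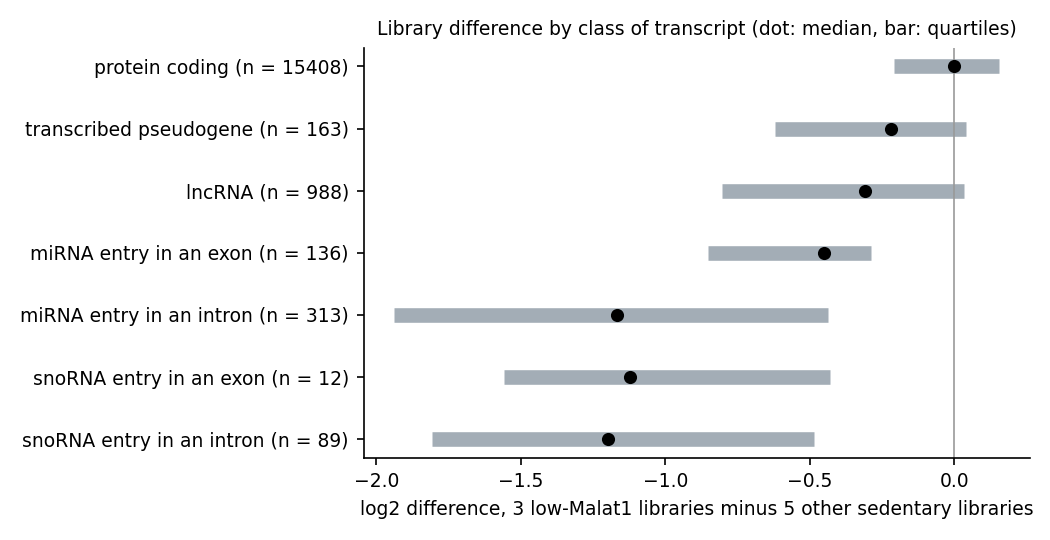
Log2 difference, low-Malat1 minus other sedentary libraries, by transcript class, with the median as a dot and the quartiles as a bar. Protein-coding genes centre on 0, whereas lncRNAs have a median of -0.31, microRNA entries -0.45 in exons and -1.17 in introns, and snoRNA entries -1.12 in exons and -1.20 in introns.

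The microRNA and snoRNA entries were read out by a messenger RNA kit and not by a small RNA method. Whether their reads came from processed small RNAs or from longer transcripts across the same bases was not measured. Most entries within a host gene were further down than that gene. The 313 microRNA entries that lie in introns had a median log2 difference of -1.17, with 68 lower and 2 higher, and 241 of the 295 with a measured host gene were further down than their host. The median over those hosts was -0.08. For 82 snoRNA entries in introns with a measured host the entry was below its host in 72, and the host median was 0.18. The 136 microRNA entries that overlap exons had a median of -0.45, nearer to 0 than those in introns, but with 29 (21.3%) lower against 21.7% of those in introns. Of the 110 exonic entries with a measured host, 75 were below it, and the host median was -0.12. The 111 microRNA entries in no host gene had a median of -0.77, with 8 lower and 1 higher. The smaller shift of exonic entries was not seen for snoRNA entries, where the 12 that overlap exons had a median of -1.12, with 5 lower and 11 below their host, beside -1.20 over the 89 in introns.

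Individual hosts show the same difference between an entry within an intron and the gene around it. Mir6953 (chr15:76248191-76248258) lies in an intron of Grina, a glutamate receptor-associated membrane protein gene, and had the largest reduction of the named genes. It was at 0.836, 0.129 and 0.280 TPM against 7.46, 7.46, 4.31, 5.26 and 3.57 TPM, a log2 difference of -3.58. Grina itself was at 773, 768 and 766 TPM against 847, 922, 856, 829 and 770 TPM, which was -0.03 after scaling. The small entry was thus lower in every low-Malat1 library while the level of its host was nearly the same.

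Mir7115 was at 7.88, 5.98 and 1.20 TPM against 23.5, 31.6, 27.4, 19.0 and 14.2 TPM, a log2 difference of -2.39. Its host Arrb2, which encodes an adaptor that uncouples receptors from G proteins, differed by -0.32. Mir7036 was at 9.00, 4.93 and 3.56 TPM against 26.2, 44.1, 29.5, 22.8 and 25.0 TPM, a log2 difference of -2.28, and its host Srrt, a factor of nuclear RNA processing, by -0.41. The entries of both hairpins, whose sequences are given above, were therefore further reduced than the mRNA of the gene that holds them.

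In Ftx, a noncoding gene of the X inactivation centre, the host and both hairpin entries were lower together. Mir374b was at 8.10, 3.77 and 0.988 TPM against 22.0, 26.7, 22.2, 16.6 and 17.6 TPM, a log2 difference of -2.58. Mir421 was at 14.1, 6.56 and 2.22 TPM against 25.7, 48.4, 53.1, 29.8 and 26.1 TPM, a log2 difference of -2.43. Ftx was at 15.1, 8.57 and 5.07 TPM against 33.0, 43.3, 41.4, 32.1 and 29.0 TPM, a log2 difference of -1.91. All 3 entries were lowest in replicate 7.

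Eif4a2, the gene of a translation initiation helicase, shows the opposite signs. It was at 626, 642 and 659 TPM against 611, 608, 607, 584 and 592 TPM and was higher by a log2 difference of 0.20. Snora81 in its introns was at 9.26, 4.49 and 6.20 TPM against 18.4, 23.6, 20.5, 23.1 and 16.2 TPM, a log2 difference of -1.54. Snord2 in the same gene was at 5.97, 3.90 and 1.70 TPM against 17.5, 16.4, 19.6, 8.77 and 11.7 TPM, a log2 difference of -1.92. The mRNA was higher and the entries within its introns were lower in the same libraries. Some intronic entries went the other way, among them Snord42b in Rpl23a (0.66) and Mir3091 in Rps21 (0.40), both in ribosomal protein genes and chosen after their values were seen.

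**Figure D3:**
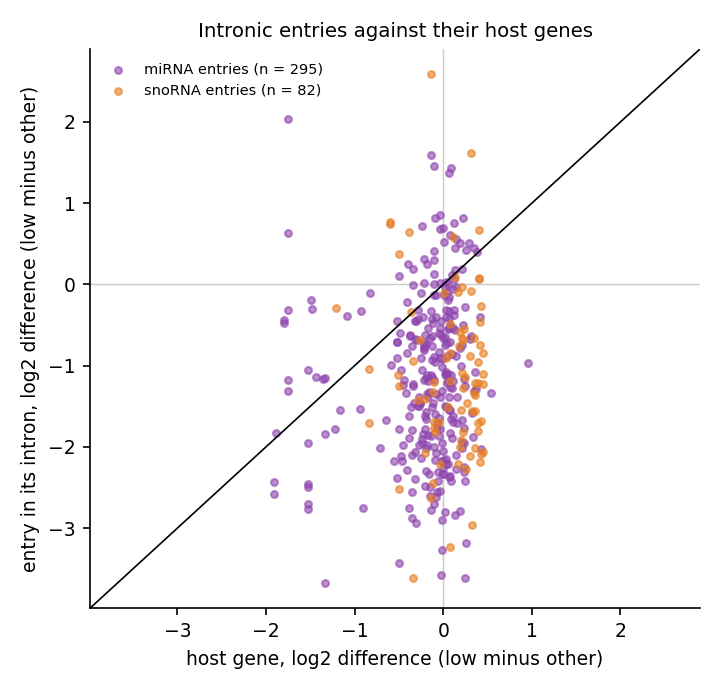
Log2 difference of microRNA and snoRNA entries in introns against that of their host gene, low-Malat1 minus other sedentary libraries, with the line of equal difference. Most points lie under the line, 241 of 295 for microRNA and 72 of 82 for snoRNA entries.

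The other named reductions were of the same classes. Mir341 lies in Rian, with a log2 difference of -3.43 against -0.50 for Rian. Mir7069 in Farsa (-2.70), Mir6992 in Stx5a (-2.55), Mir6990 in Esrra (-2.42), Mir138-2 (-2.38) and Mir6516 in an exon of Snhg20 (-2.35) were lower too. Mir341 and Mir7069 rested in part on replicate 7, without which their differences were -2.03 and -1.22. Mir1906-1 and Mir1906-2 (-2.35 and -2.34) are names for the same place within Meg3, and reads from them cannot be told apart. Grin1os, an RNA antisense to the NMDA receptor gene Grin1, was lower by -2.38, and its reads cannot be told apart from those of Grin1 unless the abundance step used strand. Igflr1, which encodes a receptor for insulin-like growth factor-like proteins, was the only protein-coding gene among the 15, at 3.48, 1.34 and 0.656 TPM against 5.85, 13.5, 11.6, 7.50 and 7.00 TPM.

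Among nuclear and imprinted-locus lncRNAs, 13 of 24 measured were lower and none higher. The 13 include Malat1, which set the split, and Meg3 and Snhg11, and without these 3 the count was 10 of 21, with a median of -0.33. Miat, a nuclear RNA that gathers in a domain of its own, was at 99.6, 61.2 and 36.6 TPM against 242, 317, 329, 263 and 189 TPM, a log2 difference of -2.01. Neat1, the scaffold of paraspeckles, was at 42.8, 18.6 and 32.2 TPM against 79.8, 88.5, 74.6, 82.2 and 88.5 TPM, a log2 difference of -1.38. These levels were the lowest of any library in the series for both genes. Kcnq1ot1, the silencing RNA of an imprinted cluster, differed by -1.81, Firre, which binds chromatin in the nucleus, by -1.85, and Mirg by -1.53. The reduction did not extend to every member, since Tug1 (0.01), 2900097C17Rik (0.17) and Snhg14 (-0.34) overlapped between the groups. Of 14 snoRNA host genes 6 were lower, among them Gas5 (-0.84), Snhg20 (-0.95) and Snhg1 (-0.34), and none was higher.

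Splicing factors and their kinases were lower as well, 24 of 34 against 1 higher (Srsf3, 0.16), with a median of -0.50. Nktr, an immunophilin-like protein with a domain rich in arginine and serine, was at 36.5, 26.9 and 20.9 TPM against 60.2, 74.5, 70.1, 59.4 and 50.6 TPM, a log2 difference of -1.08. Nktr was also the gene whose level was most like that of Malat1 over the 8 sedentary libraries, with a Pearson r of 0.998, followed by Fam193b, Zfhx2os, 4933427D14Rik and Arnt, each at 0.997. On the same measure Meg3 ranked 525 (r of 0.947) and Snhg11 703 (r of 0.932) of 11703 genes. These correlations use the Malat1 values that set the split, so they restate it and add no support. Pnisr (-1.35), Ccnl2 (-1.14), the kinase gene Clk4 (-0.93) and Srsf5 (-0.59) were lower. Of the most abundant members of the list, Ddx5 (-0.27) and Hnrnpa2b1 (-0.09) overlapped. Summed levels of the list were 3890 to 4729 TPM in the low-Malat1 and 5377 to 6800 TPM in the other sedentary libraries.

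Protein-coding genes without overlap and with a mean of 5 TPM or more were also ranked alone, a list added after the values were seen. The 5 largest reductions among them were those of Igflr1, Rreb1, Tnfrsf25, Adam8 and Leng8. Rreb1, a zinc finger transcription factor of Ras signalling, was at 27.1, 21.0 and 11.9 TPM against 82.2, 122, 103, 77.9 and 50.7 TPM, a log2 difference of -2.03. Leng8, whose product is linked to mRNA export, was at 60.2, 35.7 and 26.0 TPM against 144, 177, 168, 134 and 116 TPM, a log2 difference of -1.83. In both genes the order of the 3 low-Malat1 libraries was that of Malat1, with replicate 2 highest and replicate 7 lowest. Chromatin remodellers and histone methyltransferases had 13 of 24 members lower and none higher, with a median of -0.26, among them the H3K4 methyltransferase gene Kmt2d (-0.72) and the acetyltransferase gene Ep300 (-0.33). Summed levels of this list overlapped, at 1451 to 1702 TPM in the low-Malat1 and 1573 to 1998 TPM in the other sedentary libraries. Of 23 potassium, sodium and calcium channel genes 6 were lower and none higher (median -0.18), and of 20 glutamate and GABA receptor genes 2 were lower, Gria2 (-0.40) and Grik5.

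Transcripts of the translation and respiration machinery were higher instead. Of 86 cytosolic ribosomal protein genes 71 were higher and none lower, with a median of 0.35, and summed levels of 59801 to 70437 TPM against 53443 to 56191 TPM. Rplp1, which encodes an acidic protein of the ribosomal stalk, was at 3473, 4378 and 3888 TPM against 3069, 3153, 3436, 3302 and 3267 TPM, a log2 difference of 0.37. Rps29 (0.32) and Rps15 (0.38) were higher by similar amounts. Many of these genes have processed pseudogenes of near-identical sequence, so their levels are uncertain where reads could be split. Of 81 nuclear genes of oxidative phosphorylation 58 were higher and none lower (median 0.29), among them Cox4i1 (0.35) and Cox6a1 (0.39), both of cytochrome c oxidase. Of 39 proteasome genes 27 were higher and none lower (median 0.22).

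The median of the ribosomal protein list was 0.25 with TPM as deposited and 0.15 after quantile normalization, and that of the proteasome list 0.12 and 0.13. Reference genes in common use followed the same direction in part. Gapdh was at 3309, 3007 and 3192 TPM against 2905, 2693, 2649, 2850 and 3051 TPM, and Ppia, B2m and Sdha were also higher on the scaled levels, whereas Actb (0.03) and Ywhaz (0.11) overlapped. Genes of neuronal activity did not separate the libraries, as 0 of 21 immediate early genes were without overlap, and their median was 0.65 within p16 WT CTL and -0.47 within p16 KO CTL. The p16 WT CTL value rests on 1 low-Malat1 library, replicate 2. Of 11 mRNAs known from dendrites 2 were higher, and Camk2a (0.23) and Nrgn (0.07) overlapped. Of 12 heat shock genes 6 were higher and 1 lower, and of 65 replication-dependent histone genes 3 and 1.

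Among protein-coding genes the difference followed the length of the coding sequence. The 14779 genes were divided into 5 bins of nearly equal size. In the shortest bin, with coding sequences of 20 to 732 bases, 130 genes were lower and 672 higher, with a median of 0.15. In the middle bin, of 1140 to 1605 bases, 336 were lower and 280 higher, with a median of 0.01. In the longest bin, of 2493 to 105639 bases, 730 were lower and 80 higher, with a median of -0.15. Lower genes were thus most frequent among long coding sequences and higher genes among short ones. Spearman's rho across genes was -0.34 for coding length, -0.25 for mRNA length, 0.24 for the mean level, -0.10 for the span of the gene and -0.04 for the GC content of the mRNA. Genes are not independent replicates, and these features go along with one another. The part of RNA integrity or fragment length in this relation was not tested, since the tables hold neither.

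**Figure D4:**
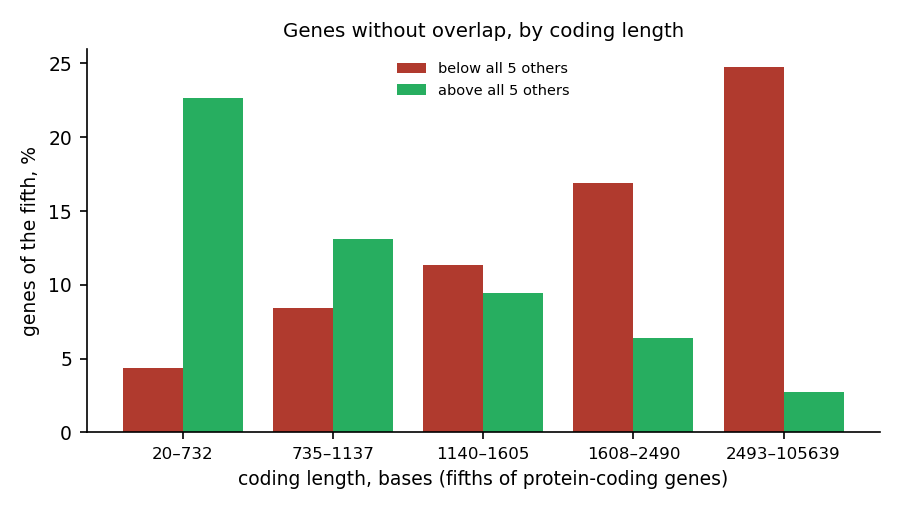
Share of protein-coding genes lower and higher in all 3 low-Malat1 libraries, by bin of coding length in bases. The share of lower genes is 4.38% in the shortest and 24.7% in the longest bin, and the share of higher genes is 22.6% and 2.71%.

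Most markers of astrocytes and microglia were higher and most of the endothelium lower, whereas those of oligodendrocytes were not set apart. In pooled tissue, fewer cells of a type and less RNA per cell cannot be told apart. Of 10 astrocyte markers 8 were higher and none lower, with a median of 0.51, and summed levels of 4145 to 4851 TPM against 3275 to 3730 TPM in the other sedentary and 3365 to 4012 TPM in the running libraries. Slc1a2, the main glutamate transporter of astrocytes, was at 1278, 1471 and 1398 TPM against 1129, 1024, 968, 1172 and 1026 TPM, a log2 difference of 0.48. Aldoc (0.54), a glycolytic enzyme gene, Slc1a3 (0.45) and the gap junction gene Gja1 (0.49) were also higher, whereas Gfap (0.59) and Gjb6 (0.51) overlapped. Of 11 microglia markers 8 were higher and none lower, with a median of 0.47 and sums of 842 to 1019 TPM against 691 to 780 TPM. C1qa, a complement component, was at 119, 131 and 122 TPM against 95.0, 90.3, 104, 87.0 and 92.2 TPM, a log2 difference of 0.51. The lysosomal protease gene Ctss (0.57) and the receptor gene P2ry12 (0.64) were higher too.

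Endothelial markers had 8 of 10 members lower and none higher, with a median of -0.64. Cldn5, a tight junction protein of the blood-brain barrier, was at 22.7, 18.7 and 18.7 TPM against 33.1, 35.7, 36.1, 34.0 and 39.9 TPM, a log2 difference of -0.73. The receptor genes Flt1 (-0.66) and Kdr (-0.59) and the junction genes Cdh5 (-0.66) and Pecam1 (-0.61) were lower alike. Summed levels were 96.6 to 138 TPM against 173 to 190 TPM in the other sedentary and 159 to 227 TPM in the running libraries. Of 6 pericyte markers 3 were lower, among them Rgs5 (-0.72), whereas Vtn (0.01) overlapped. The pericyte median was -0.29, and -0.09 after quantile normalization.

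Neuronal markers did not separate the libraries in the same way. The 10 markers of dentate granule neurons all overlapped, and their median was -0.83 within p16 WT CTL and 0.39 within p16 KO CTL. These opposite signs rest on single libraries. As median deviation from the other sedentary libraries, replicate 2 was at -0.58 and replicates 6 and 7 at 0.20 and -0.11. The p16 KO CTL libraries they are set against, replicates 5 and 8, were at 0.11 and -0.80. C1ql2, a synaptic protein of mossy fibres, was at 293, 397 and 299 TPM against 404, 610, 449, 386 and 199 TPM, so that the range of the 3 libraries lay within that of the 5 others. The oligodendrocyte list had a median of 0.60 within p16 WT CTL and -0.08 within p16 KO CTL. Its sums were 1711 to 2365 TPM in the low-Malat1 libraries and 1680, 1316, 1086 and 1593 TPM in replicates 1, 3, 4 and 5. Replicate 8, also high in CA1 markers, had 2641 TPM, so the sums overlapped through it. By median deviation of the list from the other sedentary libraries, replicate 6 (-0.03) also lay below replicate 1 (0.08). Markers of oligodendrocytes, GABAergic interneurons, CA1, CA2 and CA3 pyramidal neurons, choroid plexus, ependyma, meninges and thalamus had 0 members without overlap in either direction, although replicate 7 held a choroid plexus sum of 219 TPM against 28.9 to 56.6 TPM in the other sedentary libraries. Dcx, a microtubule protein of newborn neurons, was at 4.39, 3.61 and 2.68 TPM against 5.51, 5.00, 5.54, 5.17 and 5.48 TPM and was the single member of 6 in its list that was lower (16.7%, near the background of 14.0%). The list median was 0.20, and 4 of the 6 differences were positive. Of 7 proliferation genes Mki67 and Ccna2 were lower. Mki67 was at 0.527, 0.630 and 0.491 TPM against 1.47, 1.43, 1.36, 1.01 and 0.818 TPM, a log2 difference of -0.91. Ccna2 differed by -1.21. Csf2rb2 of 5 mossy cell markers and Hbb-bt of 5 blood genes were lower, and Pdgfra and C1ql1 of 7 oligodendrocyte precursor markers were higher. The part of cell composition in the differences of the transcript classes was not tested.

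**Figure D5:**
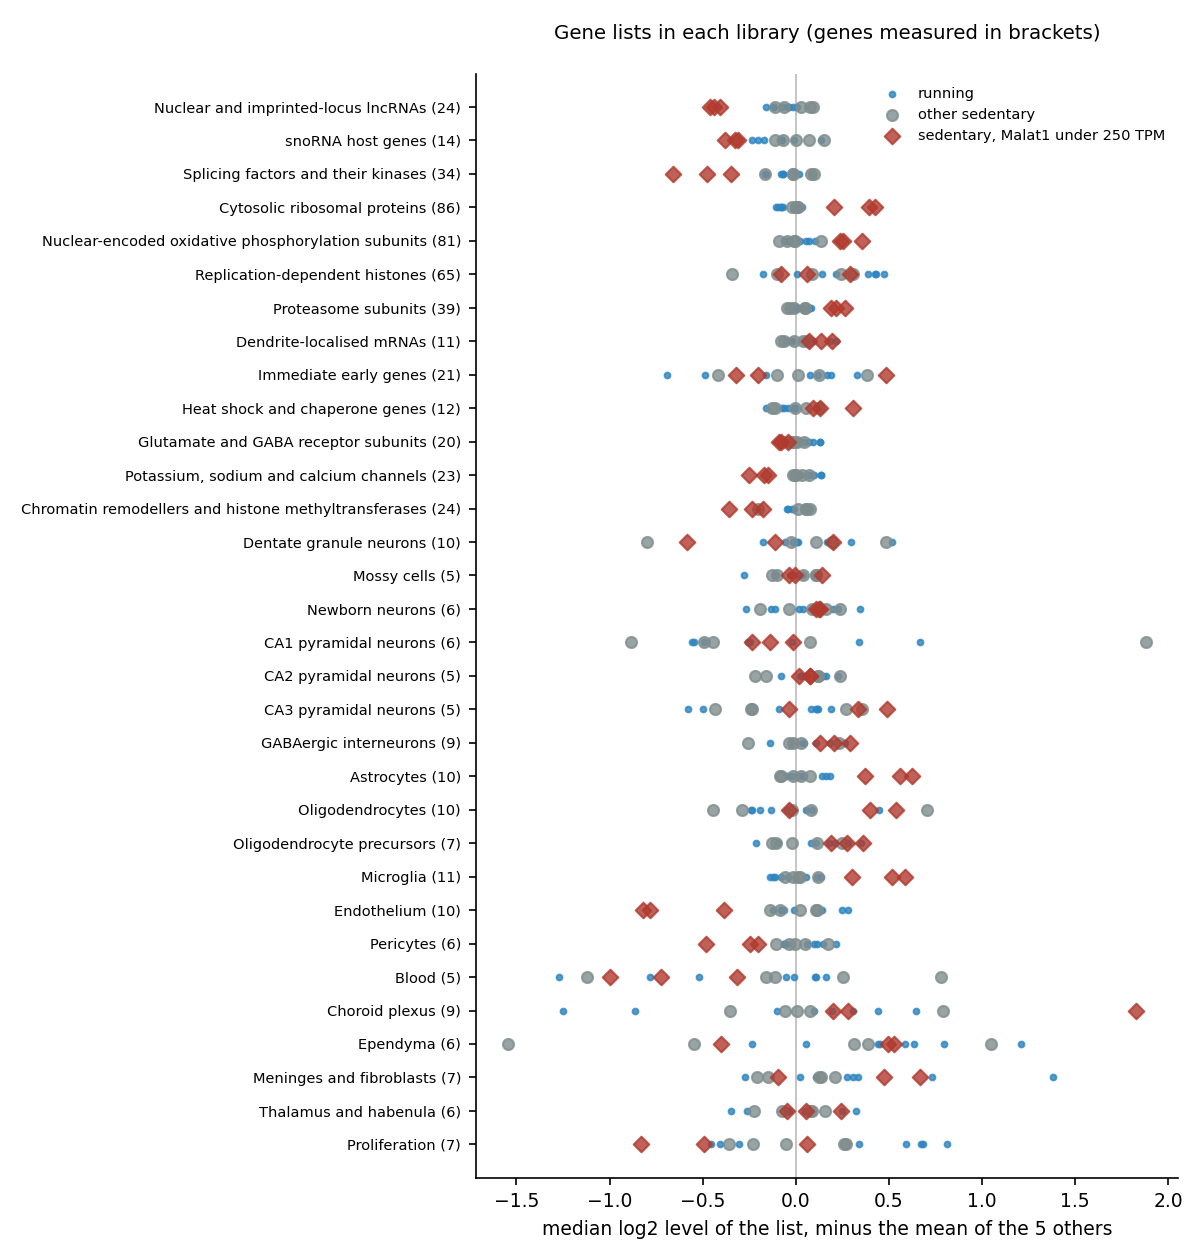
Median log2 deviation of the gene lists from the mean of the other sedentary libraries, 1 point for each library. Replicates 2, 6 and 7 lie at -0.38, -0.82 and -0.78 for the endothelium and at 0.37, 0.56 and 0.63 for astrocytes, outside the range of the other sedentary libraries for both lists.

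Among genes without overlap and with a mean of 5 TPM or more, the largest increase was that of Aqp4, the water channel of astrocyte endfeet (log2 difference 1.76). It was at 105, 132 and 117 TPM against 83.8, 85.6, 18.5, 28.6 and 18.7 TPM, and at 19.1 to 112 TPM in the running libraries. Its levels thus spread widely within the other libraries, and replicates 1 and 3 lay close to the low-Malat1 ones. Apln, a peptide ligand, was at 17.6, 28.7 and 25.4 TPM against 11.6, 15.8, 14.4, 14.5 and 15.5 TPM, a log2 difference of 0.81. Fabp7, a fatty acid binding protein of astrocytes and neural progenitors, was at 106, 160 and 102 TPM against 73.6, 65.0, 70.5, 98.1 and 88.4 TPM, a log2 difference of 0.72. Ppp1r3c, a targeting subunit for glycogen synthesis, was at 91.4, 88.1 and 82.4 TPM against 56.9, 56.3, 55.5, 60.5 and 61.0 TPM, a log2 difference of 0.69. It had the narrowest spread of these genes in both sets of libraries. Other named increases were between 0.69 and 0.81 and were Kcne1l, Hist1h4h, Gm5089, Alox5ap, S100a4, E130114P18Rik, 0610040J01Rik, Sox21, 1700084C01Rik and Dmp1.

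The running libraries allowed a test, since the split did not use them. Within them Malat1 varied less, from 436 to 856 TPM, with 1 library (p16 WT RUN replicate 10) far above the rest and the 4 libraries of p16 KO RUN between 606 and 634 TPM. With genotype as a term, limma gave 13 of 17316 genes (0.0751%) an adjusted p under 0.05 for the slope on log2 Malat1, 2 positive and 11 negative. Gsn, an actin-severing protein (slope 0.88 ± 0.11 SE, adjusted p = 0.0479), and Vim, an intermediate filament protein (0.71 ± 0.09 SE, adjusted p = 0.0485), rose with Malat1. Ntf3, a neurotrophin (-3.06 ± 0.28 SE, adjusted p = 0.0241), Cd2bp2, Pde7a, Scarna13 and Lhx9 had the smallest p among those that fell. Gpr161 (adjusted p = 0.0588), Canx and the globin gene Hba-a1 (both adjusted p = 0.0590), next in order among positive slopes, did not pass. Without replicate 10, 0 genes passed after adjustment and 1282 before it.

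In the running libraries the genes lower in the split more often had a negative than a positive slope on Malat1, and gene lists differed in direction. At an unadjusted p under 0.05 the slope was positive for 891 genes (5.15%) and negative for 915 (5.28%). Of 2416 genes lower in the low-Malat1 libraries, 44 (1.82%) had a positive slope at this threshold and 190 (7.86%) a negative one, and 37.3% had a positive slope of any size, against 51.0% of all genes. Of the 402 microRNA and snoRNA entries in introns 17 were positive and 28 negative at an unadjusted p under 0.05, and 43.8% had a positive slope of any size. Of the 34 splicing genes 1 had a positive slope, and 10 fell with Malat1 at an unadjusted p under 0.05. Of astrocyte and microglia markers 7 of 10 and 10 of 11 had positive slopes, with 2 past an unadjusted p of 0.05 in each list, and of endothelial markers 6 of 10 and 0. Oligodendrocyte markers had positive slopes in 10 of 10, with 8 past the unadjusted threshold. CA1 markers had them in 6 of 6, with 3 past it. No marker of either list passed after adjustment. The part of these cell types in the slopes of other genes was not tested. Of the 86 ribosomal protein genes 22 (25.6%) had a positive slope, 1 of them and 3 of the negative ones at an unadjusted p under 0.05, and for this list the prevailing negative sign is that of the sedentary split. Of the 81 oxidative phosphorylation genes, also mostly higher in the split, 73 had a positive slope, with 7 past the threshold.

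Nor did Meg3 and Snhg11 vary with Malat1 across the 8 running libraries to an extent that the test could show. For Meg3 Pearson's r was 0.0657 (two-sided exact permutation p = 0.874) and Spearman's rho 0.19 (exact p = 0.665), with r at -0.304 without replicates 9 and 10, the farthest from the median. For Snhg11 r was -0.0665 (exact permutation p = 0.885) and rho -0.0476 (exact p = 0.935), with r at -0.287 without the same libraries. Of 6 RNAs tested in this way, Ftx (r = -0.688, exact permutation p = 0.0565, adjusted p = 0.193; rho = -0.714, exact p = 0.0576) and Neat1 (r = 0.673, exact permutation p = 0.0643, adjusted p = 0.193; rho = 0.619, exact p = 0.115) came nearest to the threshold. Without replicates 9 and 10 their r was -0.532 and 0.329.

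The split was uneven between genotypes, with 1 of 4 p16 WT CTL and 2 of 4 p16 KO CTL libraries in the low-Malat1 class, so the comparison of p16 KO CTL with p16 WT CTL was fitted with and without it. With the class as a term, limma gave 0 genes that passed after adjustment and 1596 (9.22%) that passed before it. Without the term these counts were 0 and 1158, and with log2 Malat1 in place of the class they were 0 and 565. Both terms come from Malat1 levels measured in these same libraries. The unadjusted counts therefore describe the fits, and their differences are no measure of a genotype effect. In the 5 other sedentary libraries alone, 1 gene passed, with 1156 at the unadjusted threshold. That gene was the beta globin Hbb-b1, at 0.387, 0.508 and 0.362 TPM in p16 WT CTL and 297 and 319 TPM in p16 KO CTL (limma adjusted p = 0.000122). Reads from near-identical globin copies may be split between them. The call compares few libraries, kept by their Malat1 level. With all sedentary libraries in the fit no gene passed, and the smallest limma adjusted p was 0.422 with the class and 0.625 without it.

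The comparison of running with sedentary libraries also contained the 3 libraries on its sedentary side. With all 16 libraries and genotype as a term, limma gave 3030 genes (17.5%) an unadjusted p under 0.05 and 138 (0.797%) passed after adjustment, of which 106 rose and 32 fell in running libraries. Without the 3 low-Malat1 libraries 1511 and 0 genes passed, in a fit with fewer samples. All 138 genes kept their sign and an unadjusted p under 0.05 there, and their median absolute log2 difference went from 0.385 to 0.341. Among the 138 were 15 of the genes lower in the low-Malat1 libraries (0.621%) and 5 of the higher ones (0.294%).

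The same comparison is given for the nuclear RNAs with and without the 3 libraries, as a description only. The 3 were chosen for low Malat1, so leaving them out had to raise the sedentary level of Malat1 and of genes lower in the same libraries. The running minus sedentary difference of Malat1 was 0.96 with them and 0.23 without them, that of Meg3 0.71 and -0.05, and that of Snhg11 0.56 and -0.18. The endothelial marker Cldn5 went from 0.35 to 0.06 and Mki67 from 0.80 to 0.45.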

How the data were processed

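The authors extracted RNA with TRIzol, prepared libraries with a poly(A)+ messenger RNA kit, demultiplexed with bcl2fastq (2.20 in the submitters' processing notes), masked adapters with cutadapt (1.11 in the same notes), trimmed with ERNE, aligned paired reads to mm10 with STAR and ran StringTie. The TPM values deposited by the authors are StringTie abundances per gene. The FPKM values, per the file headers, stem from the same run and served as an alternative. The deposited coverage (mean per base) gave relative depth only. The tables hold no read counts, so counting error is unknown.

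Entries of the same gene name were summed (24421 names). Libraries were scaled by the median ratio over the 13226 genes that reached 1 TPM in every library, and the 17317 genes whose mean reached 0.1 TPM were used as log2(scaled TPM + 0.1). Levels printed in TPM are unscaled. Gene classes came from RefSeq (17270 genes matched) and introns, exons and coding lengths from GENCODE M21. A gene counted as lower or higher when the low-Malat1 and other sedentary libraries did not overlap. Tests used limma 3.58.1 in R 4.3.3 (moderated, with a variance trend), Benjamini-Hochberg adjustment over all genes, and exact permutation in scipy 1.17.1, with Python 3.11.15, pandas 2.3.3, numpy 2.4.6 and matplotlib 3.10.9. Named genes were the 15 of largest difference in each direction without overlap and with a mean of 5 TPM or more, the 5 of smallest p in each direction in running libraries, and abundant list members, with others chosen as examples after their values were seen. Some genes that this rule names are not reported here. The library split, the gene lists and the tests were chosen with earlier results of these data known. Fits were tested on simulated data, with noise drawn independently for each gene and its spread capped. There 100 of 17316 genes, taken from the better expressed, were given a Malat1 slope of 1 log2 unit in either direction. Of them 68% passed the adjusted threshold, as did 4 unchanged genes. In the real libraries many genes shift together, so the share that the slope test would find there is not known and may be lower. Alternatives were other pseudocounts, filters, scalings and model terms, the FPKM column, the highest entry per name, and leaving out each library.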

Additional observations from a re-analysis of the deposited data

Results flagged for a closer look

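In 19 of 340 checks of a measure within a group of 4 libraries, 1 library stood apart from the other 3 by more than Dixon's 95% critical value allows, where chance alone gives about 1 in 20. Of the 19, 4 were low-Malat1 libraries. Replicate 2 of p16 WT CTL stood apart in Ppp1r3c (91.4 TPM against 55.5 to 56.9 TPM in its group), in the summed level of glutamate and GABA receptor genes (3130 TPM against 3643 to 3734 TPM) and in that of astrocyte markers (4150 TPM against 3275 to 3388 TPM). Ppp1r3c was named because the low-Malat1 libraries did not overlap the others, and replicate 2 is the only low-Malat1 library of its group. The check of Ppp1r3c thus restates that choice, and the rate of 1 in 20 does not apply to it. Alox5ap and Hbb-bt, flagged below, were likewise named for the lack of overlap. The rate does not hold for the sedentary checks of genes named in this way, so the total of 19 in 340 cannot be set against it. Replicate 7 of p16 KO CTL stood apart in the sum of choroid plexus markers (219 TPM against 32.9 to 47.1 TPM).

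Among the other sedentary libraries, p16 WT CTL replicate 3 was low in Alox5ap (4.77 TPM), replicate 4 high in Hbb-bt (28 TPM) and replicate 1 high in the sum of blood genes (1190 TPM). Of p16 KO CTL, replicate 5 was high in Hbb-bt (48.4 TPM), and replicate 8 in the sums of CA1 markers (302 TPM), interneuron markers (1700 TPM) and ependymal markers (33.1 TPM).

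Among running libraries, p16 WT RUN replicate 10, the one with the highest Malat1, was high in S100a4 (11.3 TPM) and low in E130114P18Rik (7.52 TPM), replicate 9 was high in Hbb-bt (39.7 TPM), and replicate 12 was high in the sums of blood genes (726 TPM) and snoRNA entries (1090 TPM). Of p16 KO RUN, replicate 16 was high in Aqp4 (97.4 TPM) and in the sum of ribosomal protein genes (55600 TPM), and replicate 14 in the sum of CA1 markers (139 TPM).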

How the results depend on the processing

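None of the differences of Malat1, Meg3, Snhg11, the genes of largest difference, 12 gene lists and 3 classes between the low-Malat1 and other sedentary libraries changed sign under the alternatives run. Other list members were not recomputed singly, and differences near 0, such as those of Actb and Vtn, may change sign with the scaling. The running minus sedentary difference did change sign without the 3 low-Malat1 libraries for Meg3 (0.71 to -0.05) and Snhg11 (0.56 to -0.18), a shift that the choice of these libraries makes necessary. With TPM as deposited, 832 genes were higher and 3452 lower in the low-Malat1 libraries, as the median over all genes moved from -0.02 to -0.12. After quantile normalization 2020 were higher and 1795 lower, so that higher genes became the larger group. Leaving out each library in turn gave 1809 to 2679 higher and 2563 to 3470 lower genes, and fewer libraries make separation easier: the higher count was 2679 without replicate 2 and 2509 without replicate 8. The 13 slopes on Malat1 in running libraries became 4 with a pseudocount of 1, 121 with no filter, 2 with no variance trend, 0 with no genotype term and 0 with the mean of Malat1, Meg3 and Snhg11 as regressor (1147 at the unadjusted threshold), and 0 to 6 without single libraries (1159 to 2341 unadjusted). The genotype comparison gave 565 unadjusted calls with log2 Malat1 as the term and 1 adjusted call without the 3 low-Malat1 libraries, and 0 to 5 adjusted and 1179 to 1727 unadjusted calls without single libraries. The 138 running calls became 74 with no variance trend and 0 without the 3 low-Malat1 libraries (1511 unadjusted), and 37 (without p16 KO RUN replicate 14) to 244 (without p16 WT CTL replicate 3) without single libraries, with 2263 to 3635 unadjusted. Beyond the smaller number of samples or genes tested, the cause was not tested. No paired analysis was possible because the numbers 1 to 16 each name a single library. The tables hold no counts, so the counting error is unknown for every gene.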
